A study of Mus musculus with 6 samples.

Results

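The transforming growth factor β (TGF-β) genes described here were the 3 ligands *Tgfb1*, *Tgfb2* and *Tgfb3*, the latent-form carrier *Ltbp1*, the receptors *Tgfbr1* and *Tgfbr2*, the signal carriers *Smad2* and *Smad3*, and the feedback inhibitors *Smad7* and *Skil*. They were picked by symbol, and each of the 10 genes had a locus of its own among the 24469 loci of the deposited expression table. All 10 passed the filter on low values, a mean over the 6 libraries of at least 1 FPKM (mapped fragments of a transcript, scaled to its length in kilobases and to the size of the library). RNA-Seq had been done in MPCs, a conditionally immortalized mouse podocyte line that multiplies with interferon gamma and differentiates without it. The libraries fell into 3 groups of 2, and all of them were starved for 12 h and then kept in 25 mM glucose (HG) for 12 h. One group had HG alone, and the others had first received 100 ng/mL of rFGF1WT or rFGF1ΔHBS for 1 h. rFGF1WT is recombinant wild-type fibroblast growth factor 1, and rFGF1ΔHBS is its partial agonist, mutated at the heparan sulfate binding sites so that receptor dimerization is weakened. No library at normal glucose was analysed here, so the groups show how either protein changed MPCs in HG and not what HG itself did.

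TGF-β ligands are secreted in a latent form, held by their own propeptide and tethered to the matrix through latent TGF-β binding proteins such as LTBP1. Once released, a ligand binds TGFBR2, which activates TGFBR1, and TGFBR1 phosphorylates SMAD2 and SMAD3, which join SMAD4 and act on target genes in the nucleus. Among those targets are SMAD7, which blocks the receptor, and SKIL (also called SnoN), a co-repressor that binds the SMADs, so the pathway restrains itself. In the kidney TGF-β is best known for driving matrix deposition and podocyte loss in diabetic disease.

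The upstream sequences of *Tgfb1*, the ligand whose mean differed most between HG alone and either protein, and of *Ltbp1*, which alone among the 10 genes passed the test, are printed as RefSeq gives them for GRCm38.p6. Each run is the 250 bases before an annotated start on the plus strand. Capitals mark the GC box GGGCGG (or its reverse complement CCGCCC) in *Tgfb1* and the SMAD motif CAGAC (or GTCTG) in *Ltbp1*.

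Tgfb1, chr7:25686752-25687001: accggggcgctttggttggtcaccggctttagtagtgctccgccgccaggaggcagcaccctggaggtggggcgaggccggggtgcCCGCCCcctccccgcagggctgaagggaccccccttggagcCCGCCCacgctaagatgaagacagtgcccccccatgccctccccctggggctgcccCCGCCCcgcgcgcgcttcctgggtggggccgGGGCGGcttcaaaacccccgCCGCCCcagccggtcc

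Ltbp1 first start, chr17:75005279-75005528: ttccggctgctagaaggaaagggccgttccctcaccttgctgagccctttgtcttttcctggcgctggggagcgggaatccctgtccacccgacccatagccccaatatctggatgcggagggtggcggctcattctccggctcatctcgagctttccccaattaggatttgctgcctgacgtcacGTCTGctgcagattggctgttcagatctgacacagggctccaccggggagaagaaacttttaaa

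Ltbp1 inner start, chr17:75178531-75178780: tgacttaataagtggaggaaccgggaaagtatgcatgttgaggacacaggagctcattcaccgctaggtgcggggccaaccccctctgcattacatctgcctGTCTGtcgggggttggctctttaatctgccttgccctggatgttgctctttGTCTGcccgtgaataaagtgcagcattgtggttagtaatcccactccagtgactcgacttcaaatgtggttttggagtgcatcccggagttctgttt

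The *Tgfb1* window held 5 GC boxes and no CAGAC, whereas the *Ltbp1* windows held 1 and 2 CAGAC motifs and no GC box. Of the 10 genes, 6 had upstream sequence in the RefSeq table, with 8 windows in all, and *Tgfb3*, *Smad2*, *Smad7* and *Skil* had no entry. CAGAC occurred in 5 of the 8 windows and in 42.2% of the 32851 mouse windows of the same length, and GGGCGG occurred in 3 of the 8 and in 32.7%. The palindromic SMAD element GTCTAGAC, the AP-1 motif TGAGTCA and the ETS motif CCGGAAGT were in none of the 8 windows, against 0.167%, 4.46% and 2.88% of all windows. Both strands were searched, CAGAC is not contained in GTCTAGAC, and a match is a description of letters and not of a bound site. The primers with which the study followed the *Tgfb1* transcript by real-time PCR are shown because they read the same messenger RNA.

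Tgfb1 forward primer: ctcccgtggcttctagtgc

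Tgfb1 reverse primer: gccttagtttggacaggatctg

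Both primers lay in exon 1 of the 7-exon *Tgfb1* transcript, and their 133-base product spans chr7:25687911-25688043 (GRCm38, plus strand), inside the coding part of that exon. They were found in 1 of the 5 annotated transcripts of the locus, whereas the FPKM sum over all of them. By real-time PCR of MPCs in HG, the study reported lower profibrotic messages with rFGF1ΔHBS, on a panel with *Tgfb1*, *Fn1* and *Acta2*. The FPKM given below for these genes were higher with rFGF1ΔHBS than in HG, though of them only *Fn1* passed the test. The reason for this difference was not tested.

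Several facts about the libraries bear on every value. FPKM hold no read totals, so depth is unknown, but steps in the low values gave relative depths of 0.976 to 1.01 against the first HG library, and FPKM sums ran from 179594 to 185168. Library pairs within a group correlated over the tested loci at r = 0.916 to 0.923 (Pearson, log2 scale), and pairs from different groups at 0.895 to 0.924, with loci not being independent replicates. The labels do not say that replicates came from separate cultures, so the p-values measure the spread between these libraries, which may be technical. Of 9 podocyte markers, 5 had a mean FPKM of at least 1. *Synpo*, synaptopodin of the actin cytoskeleton, measured 9.58 and 10.2 FPKM in HG, 5.45 and 4.01 with rFGF1WT, and 4.84 and 6.83 with rFGF1ΔHBS, and *Podxl*, a surface sialoprotein, 16.7 and 17.6, 15.8 and 15.5, and 14.9 and 15.8, so both were below HG in all 4 libraries with protein. The slit diaphragm gene *Nphs1* (0.618 to 0.942 FPKM) and the transcription factor gene *Wt1* (0.0104 to 0.0731) were below 1 FPKM, so these defining podocyte genes were low or near 0 in the line labelled as podocytes. Summed podocyte markers were 163 to 169.5 FPKM in HG, 185 to 199.8 with rFGF1WT and 186 to 189.8 with rFGF1ΔHBS, a sum made up mainly of the widely expressed *Actn4* (mean 84.8, 102 and 103 FPKM) and *Cd2ap* (53.6, 67.6 and 60.97), against the direction of *Synpo*, *Podxl* and *Wt1*. The 3 tubular markers with a row (*Lrp2*, *Aqp1* and *Cdh16* of 5 listed) summed to 157.8 to 158.4, 115.5 to 118 and 109 to 122.0 FPKM in the same order, and the 5 mesangial markers to 34.3 to 35.0, 29.3 to 30.6 and 29.3 to 30.5. The mesangial sum was mainly *Pdgfrb* (mean 32.25, 26.9 and 26.8 FPKM), with *Des*, *Itga8* and *Ren1* near 0. *Gata3* (mean 2.24, 2.88 and 2.99 FPKM) went the other way, above HG in all 4 libraries with protein. The 5 macrophage markers summed to 60.1 to 62.6, 69.5 to 73.0 and 71.7 to 78.4 FPKM, mainly through *Cd68*, with *Ptprc*, *Adgre1* and *Itgam* near 0. *Cd14* did not rise with the sum, at 6.89 and 12.4 FPKM in HG, 6.69 and 6.36 with rFGF1WT, and 11.3 and 4.35 with rFGF1ΔHBS. The 5 endothelial markers summed to 0.0450 to 0.167 FPKM over all libraries. The part of these shifts in the results was not tested, and in bulk RNA fewer cells of a type and less RNA per cell cannot be told apart.

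Averaged over all libraries, *Tgfbr2* stood highest at 32.4 FPKM, above 89.1% of the 10562 tested loci, followed by *Smad3* at 29.4, *Smad2* at 16.2 and *Tgfb1* at 8.90. *Skil* and *Tgfbr1* both averaged 6.14 FPKM, *Tgfb3* 4.90, *Tgfb2* 4.63, *Smad7* 3.50 and *Ltbp1* 2.87, the last above 19.1% of tested loci. In this order the library values of neighbouring genes overlapped, except between *Smad2*, at 14.1 FPKM or more, and *Tgfb1*, at 10.7 FPKM or less. FPKM are divided by transcript length, which is what allows levels of different genes to be set side by side.

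**Figure D1:**
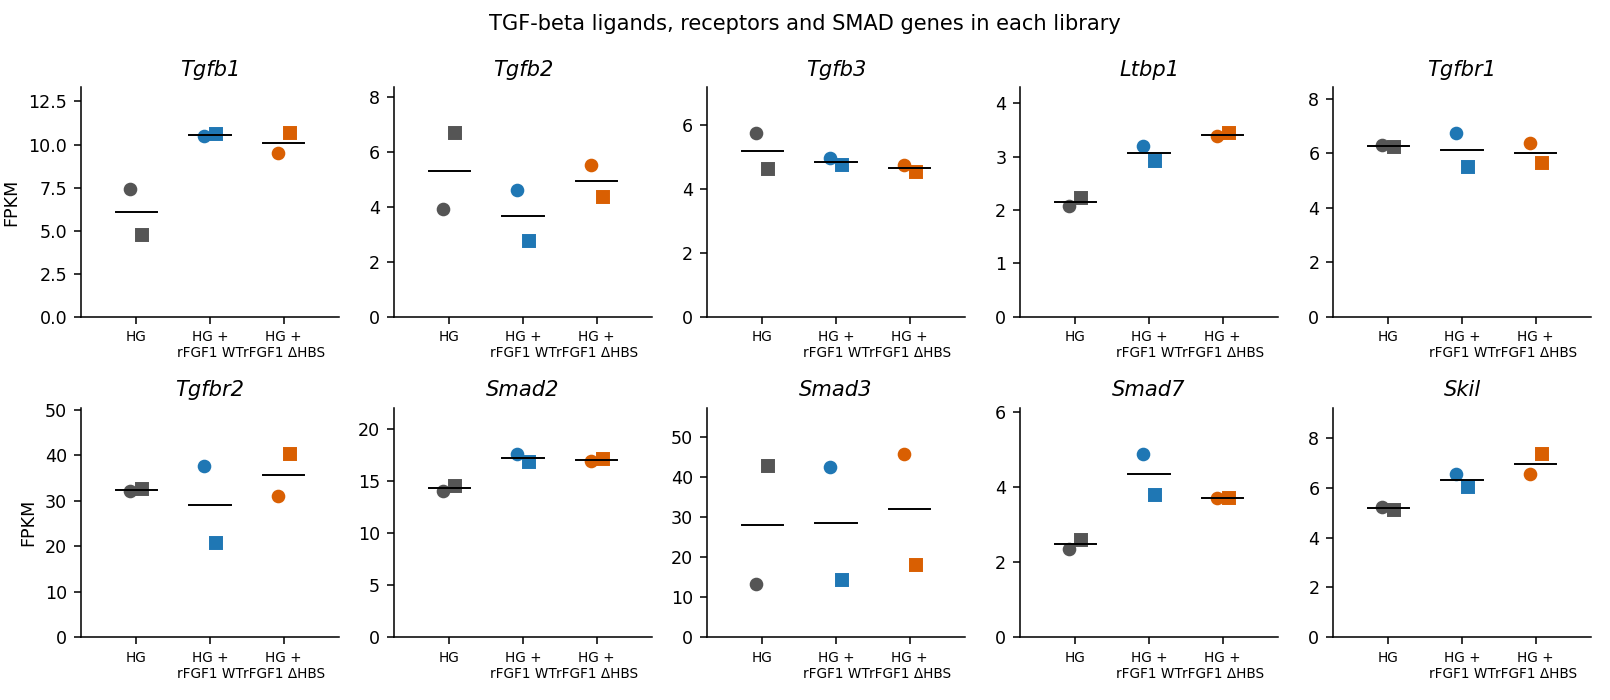
FPKM of the 10 TGF-β genes in each of the 6 libraries, 1 panel per gene with its own axis from 0 (circle, replicate 1; square, replicate 2; line, group mean). *Tgfb1*, *Ltbp1*, *Smad2*, *Smad7* and *Skil* had all 4 libraries with rFGF1 above both HG libraries, and the replicates of *Smad3* lay far apart in every group.

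The question of whether FGF1 changed the TGF-β genes of MPCs in HG was asked first of the ligands. *Tgfb1* (chr7:25687002-25705077, plus strand of GRCm38), which encodes the main profibrotic ligand of the kidney, measured 7.43 and 4.72 FPKM in HG, 10.5 and 10.6 with rFGF1WT, and 9.49 and 10.7 with rFGF1ΔHBS. All 4 libraries with protein were above both HG libraries, and the HG libraries were the ones that differed from each other. The means were 6.07 ± 1.92, 10.5 ± 0.107 and 10.1 ± 0.822 FPKM (SD, n = 2), or 1.74 and 1.66 times the HG mean. The differences in log2(FPKM + 1), a scale that understates the change of genes at low FPKM, were 0.73 (SE 0.20, adjusted p = 0.124) and 0.67 (SE 0.20, adjusted p = 0.142). Neither passed the threshold of 0.05 in limma with Benjamini-Hochberg adjustment over the 10562 loci. Without the first HG library the estimate for rFGF1WT was 1.01, and without the second it was 0.45.

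*Tgfb2* (chr1:186622792-186705989, minus strand), a ligand with roles in development and epithelial change, had no group apart from the others. Its FPKM were 3.91 and 6.68 in HG, 4.60 and 2.74 with rFGF1WT, and 5.52 and 4.34 with rFGF1ΔHBS. Its differences from HG were −0.42 (95% interval −1.27 to 0.42) for rFGF1WT and −0.06 (−0.90 to 0.79) for rFGF1ΔHBS on the log2 scale. *Tgfb3* (chr12:86056745-86079041, minus strand), the remaining ligand, was the steadiest of them, at 5.75 and 4.64 FPKM in HG, 4.98 and 4.74 with rFGF1WT, and 4.75 and 4.55 with rFGF1ΔHBS. Its log2 differences were −0.07 (−0.36 to 0.22) and −0.13 (−0.42 to 0.16). For *Tgfb2* and *Tgfb3* the groups overlapped.

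The share of *Tgfb1* among the ligand messages was higher in all 4 libraries with protein than in either HG library. The summed FPKM of the 3 ligands were 17.1 and 16.0 in HG, 20.1 and 18.1 with rFGF1WT, and 19.8 and 19.6 with rFGF1ΔHBS. *Tgfb1* made up 43.5% and 29.4% of that sum in HG, 52.2% and 58.7% with rFGF1WT, and 48.0% and 54.5% with rFGF1ΔHBS. *Tgfb2* made up 41.7% of the sum in the second HG library, ahead of *Tgfb1*, and between 15.1% and 27.9% in the other 5 libraries. Thus *Tgfb1* was the leading ligand message in 5 of the 6 libraries. With 2 libraries against 2 the smallest two-sided p of an exact permutation test is 0.333, so the shares were not tested.

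**Figure D2:**
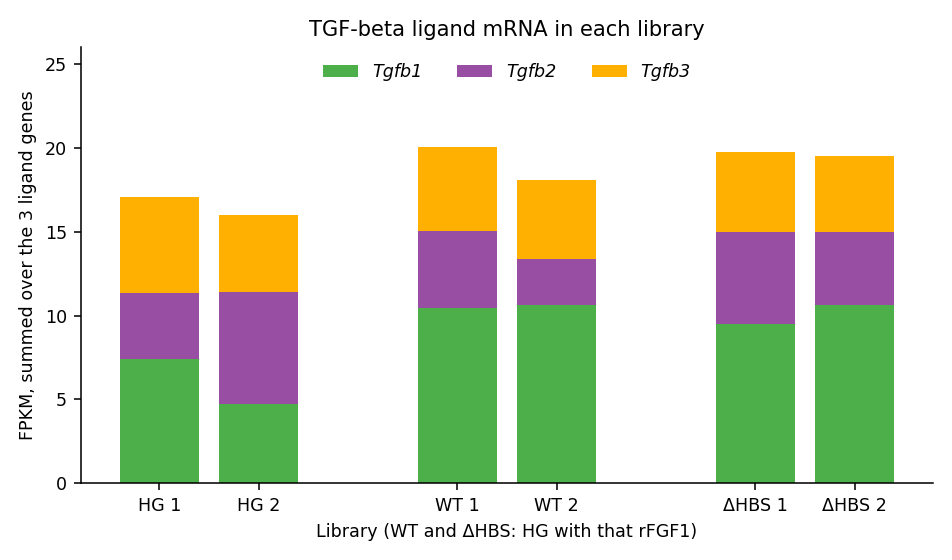
Stacked FPKM of *Tgfb1*, *Tgfb2* and *Tgfb3* in each of the 6 libraries, on an axis from 0. The *Tgfb1* part is larger in the 4 libraries with rFGF1, at 48.0% to 58.7% of the sum, than in the HG libraries, at 43.5% and 29.4%.

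*Ltbp1*, which encodes the protein that anchors latent TGF-β to the matrix, rose with rFGF1ΔHBS. Its FPKM were 2.07 and 2.22 in HG, 3.21 and 2.92 with rFGF1WT, and 3.38 and 3.44 with rFGF1ΔHBS. The groups did not overlap, and HG was the lowest. The means were 2.15 ± 0.110, 3.06 ± 0.201 and 3.41 ± 0.0409 FPKM (SD, n = 2), and the log2 difference of rFGF1ΔHBS from HG was 0.49 (SE 0.08, adjusted p = 0.0435 in limma). For rFGF1WT the difference was 0.37 (SE 0.08), with an adjusted p = 0.0762 by the same fit. The call for rFGF1ΔHBS was lost whenever 1 of the 6 libraries was left out, with adjusted p between 0.0808 and 0.152, in fits that had fewer libraries. It was also lost with no filter on low FPKM (0.111) and with only the 4 libraries compared (0.0819). The locus spans chr17:75005568-75392512 (GRCm38, plus strand), with 5 annotated transcripts, and the FPKM do not show which start was used.

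Neither receptor passed the test in any comparison. *Tgfbr1* (chr4:47353222-47414931, plus strand), the type I receptor that phosphorylates the SMADs, measured 6.30 and 6.24 FPKM in HG, 6.74 and 5.50 with rFGF1WT, and 6.38 and 5.66 with rFGF1ΔHBS. Its log2 differences from HG were −0.04 (95% interval −0.34 to 0.27) and −0.05 (−0.35 to 0.25), and the sign of the first turned under other scalings. In each group with protein, 1 library was above and the other below both HG libraries. *Tgfbr2* (chr9:116084293-116175360, minus strand), the type II receptor that binds ligand first, was steady in HG at 32.2 and 32.7 FPKM and scattered elsewhere, at 37.6 and 20.7 with rFGF1WT and 31.0 and 40.4 with rFGF1ΔHBS. Its log2 differences of −0.21 (−1.04 to 0.63) and 0.12 (−0.71 to 0.95) had intervals that covered changes in both directions. The ratio of *Tgfbr2* to *Tgfbr1* FPKM was 5.11 and 5.24 in HG, 5.58 and 3.77 with rFGF1WT, and 4.85 and 7.14 with rFGF1ΔHBS, so the type II receptor message was the more abundant in every library.

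*Smad2* (chr18:76241580-76310963, plus strand), which encodes a SMAD phosphorylated by the type I receptor, had slightly higher values with either protein. It measured 14.1 and 14.5 FPKM in HG, 17.6 and 16.8 with rFGF1WT, and 17.0 and 17.2 with rFGF1ΔHBS. The groups with protein lay wholly above HG, and the replicates were close. The ratios to the HG mean were 1.20 and 1.19, and the log2 differences were 0.25 (SE 0.05, adjusted p = 0.0773) and 0.24 (SE 0.05, adjusted p = 0.0830) in limma, neither past the threshold. Under median-ratio scaling the adjusted p for rFGF1WT was 0.0491.

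*Smad3* (chr9:63646767-63757994, minus strand), its partner, behaved differently, in that replicates of the same group were further apart than any group means. Its FPKM were 13.2 and 42.7 in HG, 42.6 and 14.2 with rFGF1WT, and 45.8 and 18.0 with rFGF1ΔHBS. Each group thus held a high and a low library, and the high one was replicate 2 in HG and replicate 1 in the groups with protein. The replicates differed by 3.24, 2.99 and 2.55 times, and among the 10562 loci 68 (0.644%) had replicates at least 2-fold apart in all 3 groups with every library above 0. The log2 differences were 0.05 (95% interval −2.29 to 2.39) and 0.26 (−2.08 to 2.60), so a change of *Smad3* of several times in either direction was not detectable in these libraries. The FPKM of *Smad3* divided by those of *Smad2* were 0.936 and 2.94 in HG, 2.41 and 0.846 with rFGF1WT, and 2.70 and 1.05 with rFGF1ΔHBS. *Smad4*, the partner of both, did not show this split, at 10.2 and 9.66, 8.06 and 10.3, and 11.2 and 9.65 FPKM. *Ski*, the co-repressor related to *Skil* and named after its values were seen, was low in the same HG and rFGF1WT libraries as *Smad3*, at 16.8 against 39.4 and 13.4 against 32.9 FPKM, but not in rFGF1ΔHBS, at 33.1 and 36.0.

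Both feedback inhibitors were higher in all 4 libraries with protein. *Smad7* (chr18:75367529-75395935, plus strand), whose product blocks the type I receptor, measured 2.34 and 2.59 FPKM in HG, 4.88 and 3.77 with rFGF1WT, and 3.71 and 3.69 with rFGF1ΔHBS. HG was the lowest group with no overlap, and the means of 4.33 ± 0.780 and 3.70 ± 0.00680 FPKM (SD, n = 2) were 1.75 and 1.50 times the HG mean of 2.47 ± 0.178. The log2 differences were 0.61 (SE 0.12, adjusted p = 0.0721) and 0.44 (SE 0.12, adjusted p = 0.125) in limma. *Skil* (chr3:31095058-31122577, plus strand), whose product represses SMAD target genes, measured 5.24 and 5.11 FPKM in HG, 6.55 and 6.03 with rFGF1WT, and 6.53 and 7.36 with rFGF1ΔHBS. Its ratios to the HG mean were 1.22 and 1.34, with log2 differences of 0.24 (adjusted p = 0.177) and 0.36 (adjusted p = 0.0852) in the same fit. None of these 4 differences passed the threshold. The FPKM of *Smad7* came to 16.6% and 17.8% of those of *Smad2* in HG, 27.6% and 22.4% with rFGF1WT, and 21.8% and 21.5% with rFGF1ΔHBS.

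Counted over the 10 genes, limma called 0 with rFGF1WT, where 6.19% of the tested loci were called, and 1 (*Ltbp1*) with rFGF1ΔHBS, where 6.26% were called. At an unadjusted p under 0.05 the counts were 5 and 5, against 24.8% and 24.9% of the tested loci. In 5 of the 10 genes (*Tgfb1*, *Ltbp1*, *Smad2*, *Smad7* and *Skil*) all 4 libraries with protein were above both HG libraries, as in 17.1% of the tested loci, and in 0 of them all 4 were below, as in 25.5%. The median log2 difference of the 10 genes was 0.14 with rFGF1WT and 0.25 with rFGF1ΔHBS, beside −0.04 over all tested loci in each comparison. Both comparisons use the same HG libraries and so are not independent. The 10 genes were chosen with earlier results of these data known, so these counts are no test of the set against all loci. None of the 10 genes reached a called change of 2-fold, a size that 1.01% and 0.899% of the tested loci reached.

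When both proteins were averaged against HG, a contrast added after the data were seen, limma called *Smad2* (log2 difference 0.25, adjusted p = 0.0477) and *Ltbp1* (0.43, adjusted p = 0.0331). That made 2 of the 10 genes, where 10.1% of the tested loci were called. *Smad7* (0.53, adjusted p = 0.0564), *Skil* (0.30, adjusted p = 0.0757) and *Tgfb1* (0.70, adjusted p = 0.0842) came next without passing.

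**Figure D3:**
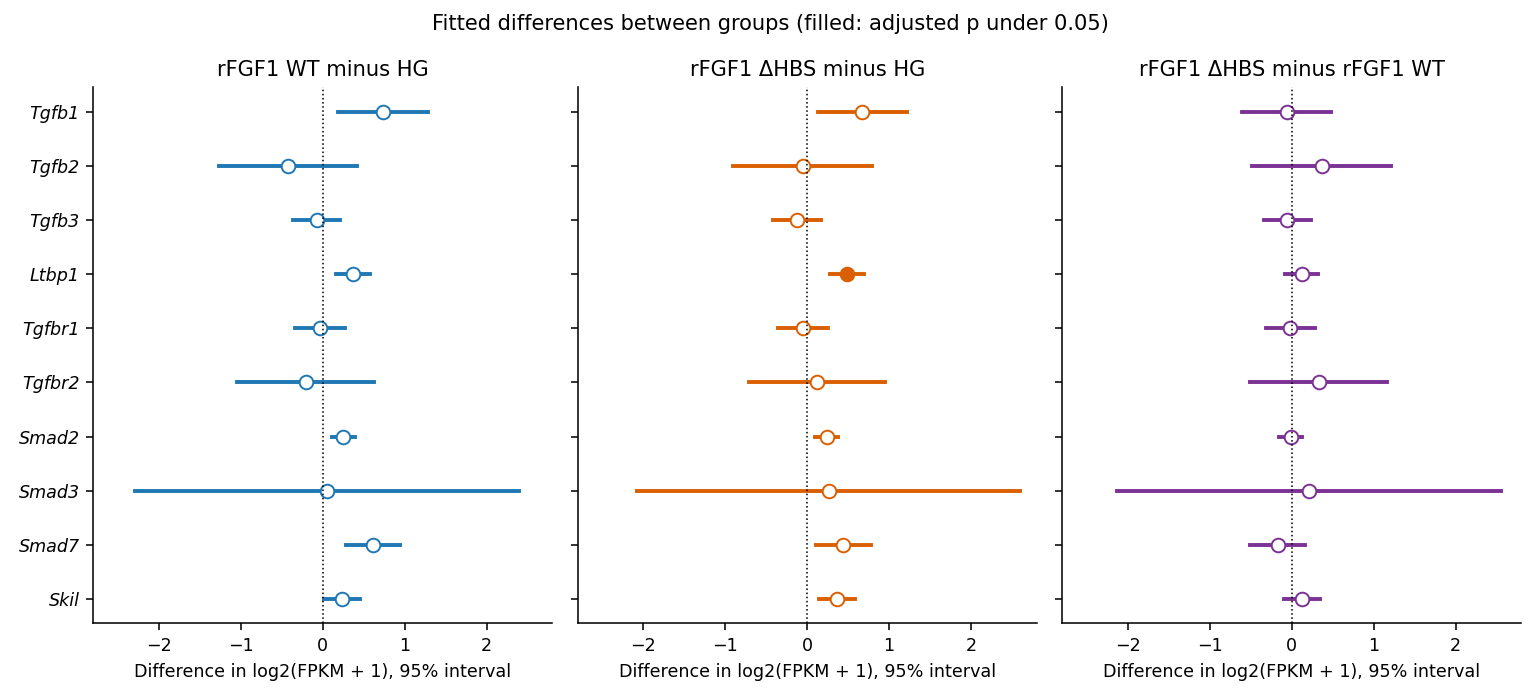
Fitted differences in log2(FPKM + 1) of the 10 TGF-β genes in the 3 comparisons, with 95% intervals from limma (filled points, adjusted p under 0.05; line at 0, no difference). The filled point is *Ltbp1* with rFGF1ΔHBS against HG at 0.49, and the intervals of *Smad3*, such as −2.29 to 2.39, are the widest.

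Set directly against each other, rFGF1ΔHBS and rFGF1WT, the agonists that differ by the heparan sulfate site mutations, gave no called difference in the 10 genes. The proteins had been given at the same dose and time. With limma 0 of 10 genes passed after adjustment, where 0.549% of the tested loci did, and 0 had an unadjusted p under 0.05, where 4.87% did. The differences, rFGF1ΔHBS minus rFGF1WT, ran from −0.17 for *Smad7* (95% interval −0.50 to 0.16) to 0.37 for *Tgfb2* (−0.48 to 1.21). The intervals were narrowest for *Smad2* (−0.01, −0.15 to 0.13), *Ltbp1* (0.12, −0.09 to 0.33) and *Skil* (0.12, −0.10 to 0.34), and they were −0.61 to 0.48 for *Tgfb1*. A missed threshold does not show that the proteins acted alike on these genes.

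The genes around this core were read from lists sorted by role, 58 genes in all, of which 42 passed the filter on low FPKM. These lists were chosen with earlier results of these data known, so their shares are no test of the lists against all loci. With rFGF1WT 5 of the 42 were called (11.9%, with 4 higher and 1 lower) and with rFGF1ΔHBS 6 (14.3%, 5 higher and 1 lower), where 3.26% of all tested loci were called higher and 2.94% lower with rFGF1WT, and 3.37% and 2.89% with rFGF1ΔHBS. With 1 library left out these counts were 0 to 2 in both comparisons, for each of the 6 libraries in turn. *Thbs1*, *Fn1*, *Fst*, *Acvr1b* and *Tgif1* lost their calls whichever library was left out, with adjusted p from 0.0525 to 0.159. *Bhlhe40* had an adjusted p of 0.0358 to 0.0547 with rFGF1WT and 0.0443 to 0.0647 with rFGF1ΔHBS, above the threshold without the first rFGF1WT library in the one and without either rFGF1ΔHBS library (0.0634 and 0.0647) in the other. Over all 42 the median log2 difference was 0.03 with rFGF1WT and 0.02 with rFGF1ΔHBS. In 10 of the 42 all 4 libraries with protein were above both HG libraries, as in 17.1% of all tested loci. In 7 of the 42 all 4 were below, as in 25.5%. None of the called genes changed 2-fold on the log2(FPKM + 1) scale. By the ratio of mean FPKM to HG, *Bhlhe40* (2.03) and *Fst* (2.05) exceeded 2-fold with rFGF1WT, and stood at 1.90 and 1.96 with rFGF1ΔHBS.

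Among the genes that hold and release latent TGF-β, 12 were listed and 7 tested, and *Thbs1* rose with both proteins while the other 6 did not pass. *Thbs1* encodes thrombospondin 1, an activator of latent TGF-β, and was far more abundant than any ligand. It measured 128 and 133 FPKM in HG, 177 and 179.8 with rFGF1WT, and 176 and 188 with rFGF1ΔHBS. All libraries with protein were above HG, with log2 differences of 0.45 (adjusted p = 0.0244) and 0.48 (adjusted p = 0.0225) in limma. *Itgav*, the αv integrin subunit that binds the latent propeptide and a gene named after its values were seen, measured 10.7 and 12.5, 16.2 and 23.6, and 25.0 and 25.4 FPKM in the same order, with adjusted p = 0.121 and 0.0578. When both proteins were averaged against HG, *Itgav* passed (log2 difference 0.89, adjusted p = 0.0485). The median log2 difference of the 7 latency genes was 0.02 with rFGF1WT and −0.01 with rFGF1ΔHBS.

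Of 9 co-receptors and receptor regulators, 6 were tested and 0 passed in limma in either comparison with HG, where 6.19% and 6.26% of all tested loci passed. At an unadjusted p under 0.05 the counts were 1 and 0, against 24.8% and 24.9% of all tested loci. The median log2 differences of the 6 were 0.05 and 0.07. *Dab2*, an adaptor in receptor trafficking, stood at 31.2 and 34.2 FPKM in HG, 36.9 and 34.9 with rFGF1WT, and 33.7 and 38.6 with rFGF1ΔHBS. *Tgfbr3*, the co-receptor betaglycan, stood at 19.6 and 20.2, 13.9 and 17.6, and 18.3 and 18.6 FPKM. The latter was thus below HG in every library with protein, with log2 differences of −0.33 (adjusted p = 0.189) and −0.10 (adjusted p = 0.625).

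All 12 of the other SMADs, SMAD modifiers and co-repressors were tested, and *Tgif1* with rFGF1ΔHBS was the one that passed, while the median log2 differences of the 12 were −0.02 and 0.04. *Tgif1* encodes a homeobox co-repressor of SMAD2. It measured 4.55 and 4.82 FPKM in HG, 3.75 and 3.93 with rFGF1WT, and 6.64 and 6.57 with rFGF1ΔHBS. The 3 groups did not overlap, and HG lay between the others. The log2 difference from HG was 0.42 (adjusted p = 0.0393) for rFGF1ΔHBS and −0.23 (adjusted p = 0.120) for rFGF1WT. Between the proteins it was 0.65 (95% interval 0.48 to 0.82), with an adjusted p = 0.0534 over all loci, just short of the threshold.

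Among the classical targets of TGF-β, 15 were listed and 10 tested, and *Fn1* and *Bhlhe40* rose with both proteins while the other 8 did not pass. The matrix genes *Col1a2*, *Col3a1*, *Postn* and *Tgfbi* and the collagen cross-linker gene *Lox* averaged under 1 FPKM and were not tested. Of these, *Col1a2*, *Postn*, *Tgfbi* and *Lox* were below HG in all 4 libraries with protein, and *Col3a1* overlapped with HG. *Tgfbi* was near 0 in every library, at 0.1655 FPKM or less. The share of untested loci with such a pattern was not counted. *Bhlhe40*, a transcriptional repressor, measured 12.0 and 10.9 FPKM in HG, 23.8 and 22.7 with rFGF1WT, and 21.7 and 21.8 with rFGF1ΔHBS, log2 differences of 0.96 (adjusted p = 0.0114) and 0.87 (adjusted p = 0.0140) in limma. *Fn1*, fibronectin, the matrix protein, measured 117 and 121, 149.6 and 152, and 152 and 164 FPKM, smaller differences of 0.34 (adjusted p = 0.0439) and 0.41 (adjusted p = 0.0301). Both had all 4 libraries with protein above HG, as did 6 of the 10 tested targets in all, against 17.1% of all tested loci. In 1 tested target, *Col1a1*, all 4 were below HG, as in 25.5% of all tested loci. *Col1a1* measured 2.04 and 2.21 FPKM in HG, 1.41 and 1.72 with rFGF1WT, and 1.70 and 1.70 with rFGF1ΔHBS. The median log2 difference of the 10 was 0.27 with rFGF1WT and 0.29 with rFGF1ΔHBS, beside −0.04 over all tested loci.

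*Ctgf*, which encodes a connective tissue growth factor and is named here after its values were seen, had large changes and wide spread, at 8.68 and 15.9 FPKM in HG, 31.9 and 40.6 with rFGF1WT, and 30.3 and 57.3 with rFGF1ΔHBS. The fitted log2 differences were 1.53 and 1.74, short of the threshold at adjusted p = 0.127 and 0.0980. The contractile genes *Acta2* (10.8 and 12.7, 17.6 and 16.8, and 14.1 and 14.7 FPKM) and *Tagln* (16.1 and 11.6, 27.4 and 26.4, and 30.6 and 20.8 FPKM), also named after their values were seen, were above HG in all 4 libraries with protein without passing. Many of these targets also answer to other signals, and no TGF-β ligand or inhibitor was added in these libraries.

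In the activin branch, which shares SMAD2 and SMAD3 with TGF-β, 10 genes were listed and 7 tested. *Fst*, which encodes the activin trap follistatin, rose from 1.60 and 1.59 FPKM in HG to 3.55 and 3.01 with rFGF1WT and 3.03 and 3.25 with rFGF1ΔHBS, log2 differences of 0.72 (adjusted p = 0.0299) and 0.67 (adjusted p = 0.0345) in limma. *Acvr1b*, the activin type I receptor, fell from 19.3 and 20.7 FPKM to 12.7 and 12.1 and to 12.8 and 14.1, differences of −0.65 (adjusted p = 0.0244) and −0.53 (adjusted p = 0.0354). *Fst* was thus higher and *Acvr1b* lower with either protein, and for both genes HG did not overlap with the libraries with protein. The other 5 tested genes did not pass. Among them was the receptor gene *Acvr2a*, named after its values were seen, with mean FPKM of 6.09 in HG, 6.02 with rFGF1WT and 5.85 with rFGF1ΔHBS. The median log2 difference of the 7 was −0.01 with rFGF1WT and −0.05 with rFGF1ΔHBS.

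Between the proteins limma called 0 of the 42 tested pathway genes, where 0.549% of all tested loci were called. At an unadjusted p under 0.05 the count was 1 (*Tgif1*), where 4.87% of all tested loci passed.

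**Figure D4:**
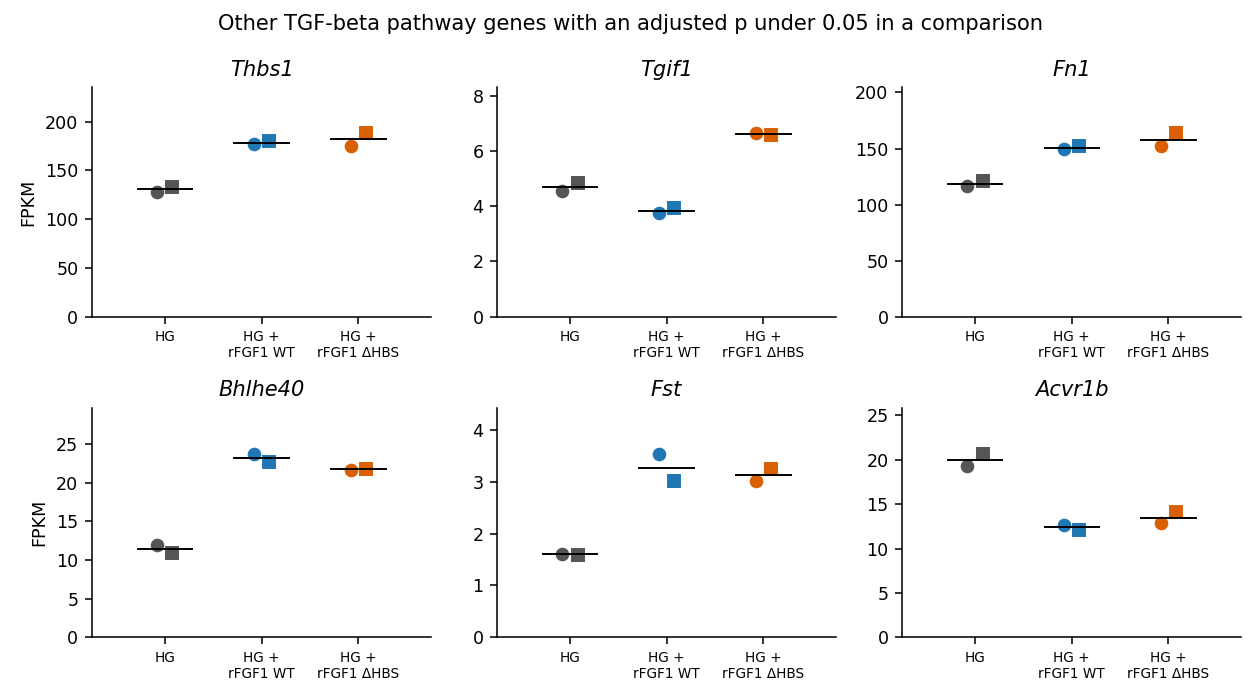
FPKM of the 6 called pathway genes in each of the 6 libraries, 1 panel per gene with its own axis from 0 (circle, replicate 1; square, replicate 2; line, group mean). In *Thbs1*, *Fn1*, *Bhlhe40* and *Fst* the 4 libraries with rFGF1 are above HG, in *Acvr1b* they are below it, and in *Tgif1* the HG libraries at 4.55 and 4.82 lie between those with rFGF1WT and rFGF1ΔHBS.

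The genes whose pattern over the 6 libraries was most like that of *Ltbp1* were *Pidd1*, *Ahnak* and *Man2a1*, with root mean square differences of the centred log2(FPKM + 1) of 0.0243, 0.0341 and 0.0351. *Pidd1*, for example, had mean FPKM of 6.89 in HG, 9.43 with rFGF1WT and 10.4 with rFGF1ΔHBS. These are closest matches among 10562 loci over 6 points in 3 groups, with no test.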

How the data were processed

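RNA-Seq was done by the authors on 6 libraries of MPCs, with poly(A) selection and paired ends, and the authors deposited FPKM per locus. The submitters' processing notes name Bowtie 0.12.2, HISAT2 2.0, StringTie 1.3.0 and build mm8. The table has no coordinates, so positions are those of GENCODE M21 (GRCm38), reached through Ensembl transcript identifiers, of which 99.6% were found. Whether strand was used in counting is not given in the sources used here.

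Groups and replicate numbers were taken from the labels. The members and lists were chosen with earlier results of these data known. For the 10562 loci whose FPKM averaged at least 1, log2(FPKM + 1) was modelled in R 4.3.3 by limma 3.58.1 (lmFit, contrasts, eBayes with trend), with 1 spread over the 3 groups and 3 residual degrees of freedom. Calls were Benjamini-Hochberg adjusted p under 0.05, and a 2-fold limit on the log2(FPKM + 1) scale was counted beside them. The study states its own limits as a q-value and 2-fold. Summaries used pandas 2.3.3 and numpy 2.4.6 under Python 3.11.15, and figures used matplotlib 3.10.9.

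On simulated data for rFGF1WT against HG, over 10562 loci, 68 of 100 loci changed by 1 and 89 of 100 changed by 2 on the log2 scale were called, with 6 unchanged loci called. The simulation drew independent normal noise with the spread fitted to each locus, and no other loci were changed. In the data, 24.8% of the tested loci had an unadjusted p under 0.05 in limma. The simulated counts are thus a check of the fit and not the rates of missed or false calls in these libraries. Depth is unknown, and relative depth came from 2065 to 2146 low values per library.

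Named genes were all 10 members, the called genes of the role lists or, where a list had none, its 2 genes of highest mean FPKM, and the 3 loci most like a called member. Other genes are said to be named after their values were seen, apart from *Smad4*, named with its partners. Alternatives were a pseudocount of 0.1, other filters and scalings, only the 4 libraries compared, robust eBayes, a replicate block, a 2-fold limit, FPKM summed over loci and each library left out. The results of 2 listed genes, a pathway gene and a marker, are not reported here and enter no list count. Real-time PCR, protein and mouse experiments are not analysed here.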

Additional observations from a re-analysis of the deposited data

Results flagged for a closer look

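*Tgif1* moved in opposite directions from HG with the 2 proteins, lower in both rFGF1WT libraries and higher in both rFGF1ΔHBS libraries. The difference between the proteins was 0.65 on the log2(FPKM + 1) scale, with an adjusted p = 0.0534 in limma and 0.0528 to 0.221 over the alternatives, so it did not pass the threshold in any of them.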

How the results depend on the processing

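Counts of called genes were small and depended on the fit. For the 10 TGF-β genes with rFGF1WT against HG the count of 0 became 1 under median-ratio scaling and 2 when both proteins were averaged. With rFGF1ΔHBS the count of 1 became 0 with a mean FPKM of at least 5 (which removed *Ltbp1* itself), with no filter, with only the 4 libraries compared, with the replicate block (*Ltbp1*, adjusted p = 0.119) and with the 2-fold limit, 2 when both proteins were averaged, and 0 to 0 with a library left out. For the pathway genes the count of 5 with rFGF1WT became 2 with no filter, 2 with 4 libraries, 0 with the block, 0 with the 2-fold limit and 0 to 2 with a library left out. The count of 6 with rFGF1ΔHBS became 2, 2, 0, 0 and 0 to 2 in the same order, and the count of 0 between the proteins became 0 to 1 with a library left out, where *Gdf11* passed without the first rFGF1ΔHBS library. The replicate block left 41 and 39 calls over all loci in place of 654 and 661. Deviations of same-numbered libraries from their group means correlated between groups at −0.0212, 0.098 and −0.0467, so the numbers were not taken to pair libraries. Only the 4 libraries compared left 170 and 189 calls over all loci, no filter 407 and 386, and a library left out 134 to 195 and 118 to 198. Median-ratio scaling moved the median log2 difference of all loci from −0.04 to 0.01 and 0.00.

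The sign turned in estimates that were not called. *Tgfbr1* with rFGF1WT was 0.0116 under median-ratio scaling and 0.0093 under quantile normalization, and *Dab2* between the proteins was −0.0031 under median-ratio scaling. With a library left out, rFGF1WT against HG ranged from −0.20 to 0.0565 for *Tgfb3*, −0.16 to 0.0905 for *Tgfbr1*, −0.62 to 0.21 for *Tgfbr2* and −0.76 to 0.86 for *Smad3*. rFGF1ΔHBS against HG ranged from −0.38 to 0.27 for *Tgfb2*, −0.26 to 0.0037 for *Tgfb3*, −0.13 to 0.0227 for *Tgfbr1*, −0.0655 to 0.31 for *Tgfbr2* and −0.55 to 1.07 for *Smad3*. Between the proteins the ranges were −0.14 to 0.0143 for *Tgfb1*, −0.14 to 0.11 for *Tgfbr1*, −0.0863 to 0.74 for *Tgfbr2*, −0.0454 to 0.0193 for *Smad2*, −0.55 to 0.97 for *Smad3*, −0.0239 to 0.0764 for *Thbs1*, −0.14 to 0.0445 for *Fst* and −0.0869 to 0.10 for *Dab2*. The causes were not tested. A mean FPKM of at least 5 gave no value for *Tgfb2*, *Tgfb3*, *Smad7*, *Ltbp1* and *Fst*. With 2 libraries a group the spread limits what could be called.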

Other observations

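*Gdf11*, an activin-like ligand and not among the called genes, was named after its values were seen. It measured 18.1 and 18.1 FPKM in HG, 3.03 and 2.40 with rFGF1WT, and 2.52 and 15.9 with rFGF1ΔHBS, so the rFGF1ΔHBS libraries lay on either side of the gap, and limma gave adjusted p = 0.164 and 0.377 against HG. *Gdf11* was low in 3 of the 4 libraries with protein and close to HG in the other. Its call turned on the rFGF1ΔHBS libraries, which share the estimate of spread. For rFGF1WT against HG *Gdf11* passed, lower, with only the 4 libraries compared (−2.37, adjusted p = 0.0238) and without the first (0.0236) or the second rFGF1ΔHBS library (0.0245). For rFGF1ΔHBS against HG it passed, lower, without the second rFGF1ΔHBS library (−2.44, adjusted p = 0.0316) and did not without the first (−0.18, adjusted p = 0.539).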
